A study of Homo sapiens with 6 samples.

Results

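The inhibitors of cyclin-dependent kinases and the pocket proteins were described here in 3 lines of Burkitt lymphoma, a MYC-driven B-cell tumour, with and without induced miR-26a. The set holds CDKN1A, CDKN1B, CDKN1C, CDKN2A, CDKN2B, CDKN2C, CDKN2D, RB1, RBL1 and RBL2. Members were found by their symbol in the platform annotation, and the probe set that was brightest on average over the 6 arrays stood for each gene. Of these 10 genes, 9 had a named probe set, 22 probe sets in all, out of 19775 genes on the array. CDKN2C was matched to no probe set by that annotation and is not analysed here. The Affymetrix arrays measured total RNA of the established lines Namalwa, Raji and Ramos, each with 1 array labelled empty and 1 labelled miR26a. Per the labels, the lines had been transfected and doxycycline (0.5 µg/ml, 72 h) induced the microRNA, a treatment that the labels give to the empty samples as well. Each line gave 1 sample per group and no source used here names separate cultures, so p-values measure only the spread between these samples. A signal is an average over the cells of a sample, so fewer cells that express a gene and less RNA per cell cannot be told apart.

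Cyclin-dependent kinases drive a cell from G1 into S phase by phosphorylating the pocket proteins, which otherwise bind E2F factors and keep replication genes silent. The Cip/Kip inhibitors p21 (CDKN1A), p27 (CDKN1B) and p57 (CDKN1C) bind complexes of cyclins with their kinases, above all those of cyclin E and cyclin A. The INK4 inhibitors p16 (CDKN2A), p15 (CDKN2B), p18 (CDKN2C) and p19 (CDKN2D) bind the D-cyclin kinases CDK4 and CDK6. Germinal centre B cells, from which Burkitt lymphoma arises, divide fast, and MYC is known to repress CDKN1A and CDKN2B.

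The sequences shown are the induced microRNA and, because RBL1 is both a pocket protein gene and a known E2F target, the stretch of its promoter that carries E2F motifs. The mature hsa-miR-26a-5p is encoded at MIR26A1 (GRCh38.p14, chr3:37969413-37969434, plus strand) and at MIR26A2 (chr12:57824658-57824679, minus strand), with the same 22 bases at both. Capitals mark the seed, bases 2 to 8.

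hsa-miR-26a-5p: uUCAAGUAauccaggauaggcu

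RBL1 promoter stretch: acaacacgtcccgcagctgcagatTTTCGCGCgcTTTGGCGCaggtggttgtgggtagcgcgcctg

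The RBL1 stretch is 66 bases of chr20:37095982-37096047 on the minus strand of GRCh38.p14, with the E2F motifs in capitals. Both sequences are from RefSeq. RefSeq promoter windows, from 250 bases before to 50 after a start site, were given for 9 of the 10 members, 13 windows in all. The start site of the RB1 window lies 172.7 kb after the annotated start of the gene and is GC-poor (38.3%, with 0 CpG), so the promoter at the start of RB1 was not searched. Among them the E2F motif (TTTCCCGC, TTTCGCGC, TTTGCCGC or TTTGGCGC on either strand) was found in the RBL1 window alone, where 2 matches that do not overlap begin 26 and 16 bases before the start site. It was found in 3.31% of 35116 windows of all genes. The cell cycle element CHR (TTTGAA or TTCGAA, either strand) matched once, in an RBL2 window, 25 bases after the start, and was found in 16.4% of all windows. The FOXO motif TGTTTAC matched in no member window and in 3.42% of all. A match describes the letters and is not evidence of binding.

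All levels are on the log2 scale of the authors' RMA intensities. A gene was tested if its mean over the 6 arrays reached 4.42, the midpoint (median) of the probe sets that are not controls, which held for 12012 genes and for 7 of the 9 measured members. CDKN1C and CDKN2B lay below that minimum on every array. B-cell markers (5 of 5 with a probe set) and germinal centre markers (4 of 4) were above it. Of the markers of other cell types, 1 of 6 for T and NK cells, 2 of 4 for monocytes, 1 of 2 for red cells, 3 of 4 for fibroblasts and 1 of 4 for epithelium reached it, and CD14, CD3D and EPCAM did not. Array medians were 4.36 to 4.44. The Namalwa empty array stood apart in the ACTB control probe sets, where the 3′ signal exceeded the 5′ signal by 3.58 log2; this gap ran from 1.80 to 1.98 on the remaining 5. The same gap for GAPDH was 0.31 on the Namalwa empty array and 0.10 to 0.16 on the others. Levels of different genes come from different probes and are not set against each other.

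**Figure D1:**
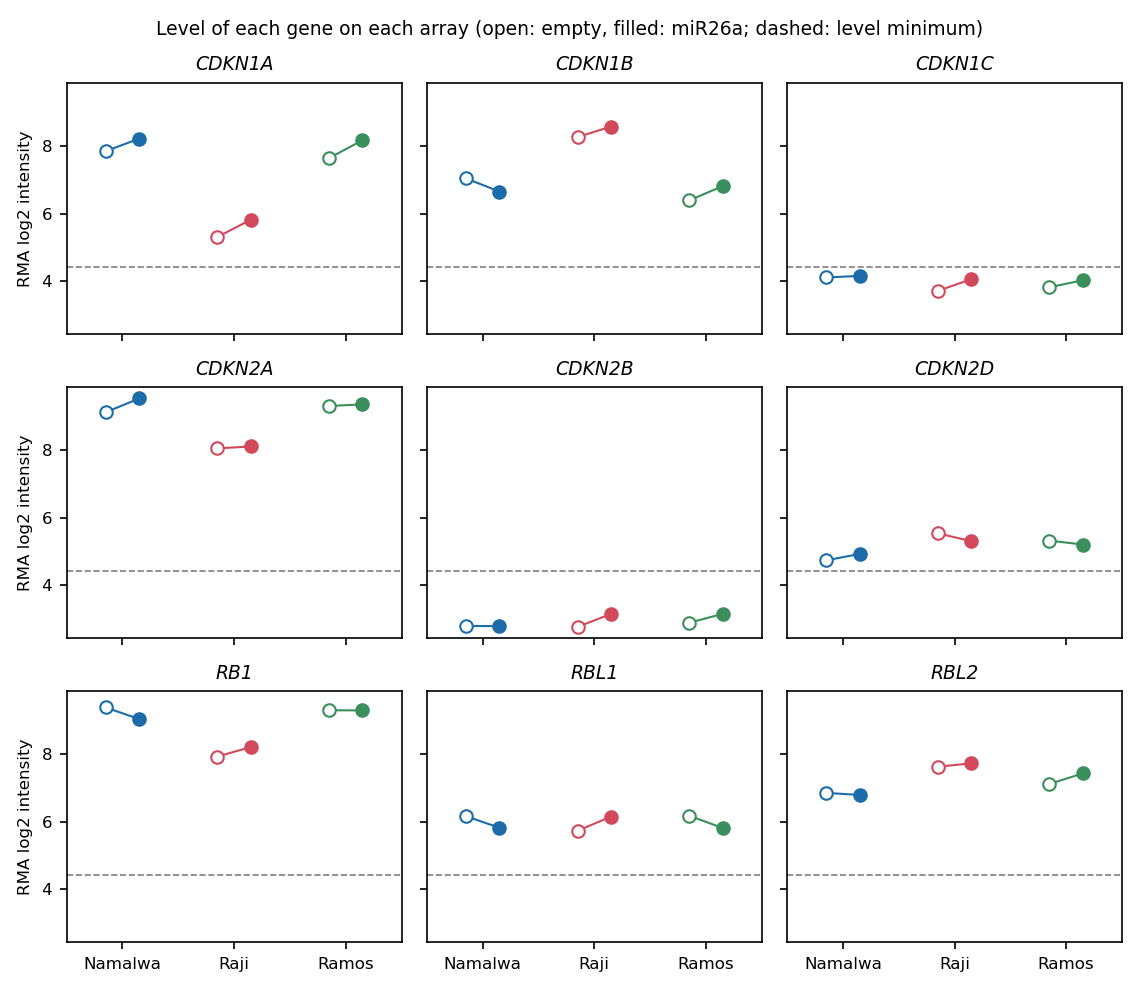
Log2 RMA intensity (y axis) of the 9 measured genes on the 6 arrays, by line (x axis); open points are empty, filled points are miR26a, and the dashed line is the level minimum of 4.42. CDKN1A is higher on the miR26a array of each line, CDKN1A, CDKN2A and RB1 are lowest in Raji, CDKN1B and RBL2 are highest in Raji, and CDKN1C and CDKN2B lie below the minimum throughout.

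The first comparison asks which of these genes differed when miR-26a was induced. CDKN1A, which encodes p21, had the most even change of the tested members: it was higher with miR26a in Namalwa, Raji and Ramos by similar amounts. CDKN2A was also higher in each line, by very little in Raji and Ramos, and the other 5 tested members had differences of both signs. With limma's fit over all genes, 0 of the 7 tested members passed an adjusted p of 0.05, where 0% of all 12012 genes did; the smallest adjusted p of any gene was 0.073. At an unadjusted p under 0.05 stood 1 member, CDKN1A, on the higher side, and 1548 genes, with 5.56% of all genes higher and 7.33% lower. The median change of the 7 members was 0.11, against -0.01 over all tested genes.

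CDKN1A in Namalwa had a level of 7.85 without and 8.23 with miR26a, against 5.31 and 5.82 in Raji, and 7.65 and 8.18 in Ramos. The miR26a array was the higher one in every line, while the groups overlap, with Raji far below the others in both. Namalwa gave a difference of 0.37 (1.29-fold), Raji of 0.51 (1.43-fold) and Ramos of 0.53 (1.45-fold). Averaged over the pairs this is 0.47, or 1.39-fold, with an SE of 0.10 and a 95% interval of 0.24 to 0.70; limma's adjusted p was 0.111 over all genes. By p it ranked 111 among 12012 genes. CDKN1A had only 1 probe set, so no other could be compared. One direction in all 3 lines was shared by 35.1% of tested genes, made up of 15.5% higher and 19.6% lower, and by 2 of the 7 members, both higher. In each line, 43 genes (0.358%) were higher by at least the 0.37 seen for CDKN1A in Namalwa. That cut is the smallest CDKN1A change, so CDKN1A meets it by construction and the share is only a description. The share of genes with a difference at least as high as that of CDKN1A within a single line was 7.24% (Namalwa), 2.71% (Raji) and 1.39% (Ramos).

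CDKN1B encodes p27, whose amount in cells is set largely by protein breakdown. Its level was 7.05 on the empty and 6.66 on the miR26a array of Namalwa, 8.27 and 8.58 in Raji, and 6.39 and 6.82 in Ramos. Raji and Ramos were higher with miR26a, by 0.31 and 0.42, and Namalwa was lower by 0.39, so the lines had opposite signs. The mean change was 0.11 (SE 0.15, 95% interval -0.23 to 0.46; limma adjusted p = 0.812). CDKN1C, which encodes p57 and is imprinted, had 5 probe sets, and none of them reached the level minimum on any array. Its brightest lay between 3.71 and 4.16, and the empty and miR26a means of 3.88 ± 0.21 and 4.08 ± 0.07 (SD, n = 3) are both below the minimum. Whether these signals exceed background was not tested.

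Among the INK4 genes, CDKN2A and CDKN2D passed the level minimum and CDKN2B did not. CDKN2A encodes p16 and, from another reading frame, the protein ARF, and the annotation does not say which transcript a probe set reads. Its level was 9.13 and 9.54 on the empty and miR26a arrays of Namalwa, 8.06 and 8.11 in Raji, and 9.32 and 9.36 in Ramos. The mean change of 0.17 (SE 0.11, limma adjusted p = 0.574) came mainly from Namalwa, which was 0.41 higher, against 0.05 in each of Raji and Ramos. A second probe set above the minimum was lower with miR26a in Namalwa, by 0.21, and its mean change was -0.07 (adjusted p = 0.838). The 2 probe sets thus had mean differences of opposite sign.

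CDKN2D, which encodes p19, was at 4.74 on the empty and 4.93 on the miR26a array of Namalwa, 5.54 and 5.31 in Raji, and 5.32 and 5.21 in Ramos. It was slightly higher in Namalwa and slightly lower in the other lines, with a mean change of -0.05 (SE 0.11, limma adjusted p = 0.895). CDKN2B, which encodes p15, stayed between 2.77 and 3.15 on its brighter probe set.

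The pocket protein genes showed no common direction with miR26a. RB1, the retinoblastoma gene and a gene that published work names among miR-26a targets, was at 9.39 on the empty and 9.05 on the miR26a array of Namalwa, 7.94 and 8.22 in Raji, and 9.31 and 9.30 in Ramos. It was 0.34 lower in Namalwa, 0.28 higher in Raji and at -0.01 in Ramos. The mean change was -0.02 (SE 0.13, 95% interval -0.31 to 0.27; limma adjusted p = 0.965), and the interval holds differences of either sign. Its other probe set was higher in Namalwa by 0.34, lower in Raji by 0.06 and level in Ramos, the reverse of the first probe set in Namalwa and Raji.

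RBL1 encodes p107, the pocket protein whose own gene is an E2F target. Its level was 6.17 and 5.83 on the empty and miR26a arrays of Namalwa, 5.73 and 6.16 in Raji, and 6.18 and 5.82 in Ramos. Namalwa and Ramos were lower by 0.34 and 0.36 and Raji was higher by 0.42. The mean change was -0.09 (SE 0.15, limma adjusted p = 0.847), and a second probe set above the minimum gave -0.06 (adjusted p = 0.853), with changes of -0.17 in Namalwa and near 0 in Raji and Ramos. The higher Raji value with miR26a on the first probe set was not seen on that second one. Another RBL1 probe set, with a mean of 4.34, lay below the minimum on average but above it on the Raji arrays. Its Raji levels were 4.505 on the empty and 4.80 on the miR26a array. Its changes were 0.32 in Namalwa, 0.295 in Raji and -0.175 in Ramos. The Raji and Ramos signs were those of the brightest probe set, and the Namalwa sign was the reverse.

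RBL2 encodes p130, the pocket protein of resting cells. Its brighter probe set was at 6.86 and 6.80 on the empty and miR26a arrays of Namalwa, 7.63 and 7.73 in Raji, and 7.12 and 7.44 in Ramos. This gave a mean change of 0.12 (SE 0.11, limma adjusted p = 0.713). The second probe set, at 5.28 to 6.40, was higher with miR26a in each line, by 0.66 in Namalwa, 0.17 in Raji and 0.45 in Ramos, with a mean of 0.42 (SE 0.12, adjusted p = 0.170). Both probe sets gave a positive mean, and neither passed. The Namalwa value of 0.66 is a difference from the array with the ACTB reading of 3.58, as are the Namalwa changes of every other member; the part of RNA quality in them was not tested.

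**Figure D2:**
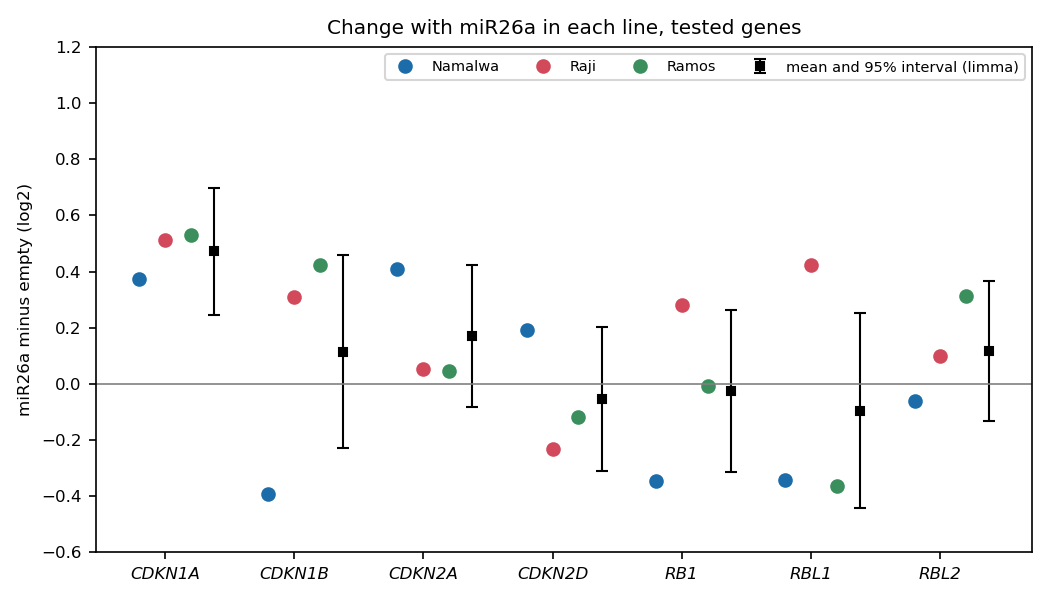
Difference miR26a minus empty in log2 (y axis) for the 7 tested genes (x axis); coloured points are the 3 lines, and the black square and bar are limma's mean and 95% interval. CDKN1A is the gene whose points all lie clear of 0, at 0.37 to 0.53, while CDKN1B, RB1 and RBL1 have lines on opposite sides of 0.

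The second set of comparisons asks how the genes differed between the lines, with the group as a block. Raji stood apart from Namalwa and Ramos: CDKN1A, CDKN2A and RB1 were lower there and CDKN1B and RBL2 higher. The RBL2 call against Ramos was the weakest of these and was lost under 8 of 14 alternatives of the processing. Of the 7 tested members, 3 were higher and 3 lower in Raji than in Namalwa at a limma adjusted p under 0.05, where 46.1% of all genes passed, 22.8% higher and 23.4% lower. Against Ramos 2 were higher and 3 lower in Raji, where 50.5% of all genes passed, 26.1% higher and 24.4% lower. Among those that passed, 4 members differed by 2-fold or more in each comparison, against 14% and 15.6% of all genes. Between Namalwa and Ramos 0 members passed (2 at an unadjusted p under 0.05), against 14.7% of all genes, 8.09% higher and 6.57% lower, with 2.83% past 2-fold. Both Raji arrays lay above all 4 others in 2 members (30.9% of all genes) and below them in 3 (26.1%). With the spread of each gene not moderated, CDKN1A alone passed in both Raji comparisons, where 490 and 988 genes were called in place of 5543 and 6068.

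CDKN1A had the largest difference of the set. Both Raji arrays, at 5.31 and 5.82, lay below the other 4, which were between 7.65 and 8.23. Its RNA signal in Raji was 5.55-fold below that in Namalwa (difference -2.47, SE 0.12, limma adjusted p = 2.58e-07) and 5.09-fold below that in Ramos (difference -2.35, adjusted p = 3.49e-07). Namalwa minus Ramos was at 0.13 (95% interval -0.15 to 0.41, adjusted p = 0.553).

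CDKN1B ran the other way. The Raji arrays, at 8.27 and 8.58, lay above the other 4, at 6.39 to 7.05. The difference was 1.58 against Namalwa, 2.98-fold (SE 0.19, limma adjusted p = 1.07e-04), and 1.82 against Ramos, 3.53-fold (adjusted p = 3.6e-05). The Cip/Kip genes p21 and p27 thus differed between Raji and the other lines in opposite directions. Namalwa minus Ramos was at 0.25 for CDKN1B (95% interval -0.18 to 0.67, adjusted p = 0.436).

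CDKN2A was lower in Raji on both probe sets above the minimum. On the brighter one Raji was at 8.06 and 8.11 and the other 4 arrays at 9.13 to 9.54, a difference of -1.25 against Namalwa (2.37-fold, limma adjusted p = 6.67e-05) and of -1.25 against Ramos (2.38-fold, adjusted p = 5.68e-05). On the other Raji was at 5.996 and 6.06 against 6.83 to 7.29, with differences of -0.92 (adjusted p = 3.09e-04) and -1.24 (adjusted p = 3.88e-05). The third CDKN2A probe set stayed below the minimum on every array. Between Namalwa and Ramos the brighter probe set gave a difference that did not pass (-0.01, 95% interval -0.32 to 0.30, adjusted p = 0.985).

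CDKN2D differed less. Namalwa was lowest, at 4.74 and 4.93, with Raji at 5.31 and 5.54 and Ramos at 5.21 and 5.32. Raji exceeded Namalwa by 0.59 (SE 0.14, limma adjusted p = 0.00667), a call lost on leaving out either the Namalwa empty array (adjusted p = 0.0874) or the Raji empty array (adjusted p = 0.0554). Raji minus Ramos was at 0.16 (95% interval -0.16 to 0.47, adjusted p = 0.369), and Namalwa minus Ramos was at -0.43 (adjusted p = 0.0708). CDKN1C and CDKN2B, fitted with no level minimum, gave adjusted p-values of 0.207 to 0.859 between lines.

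RB1 was lower in Raji, at 7.94 and 8.22, than on the other 4 arrays, at 9.05 to 9.39. The difference was -1.14 against Namalwa (2.21-fold, SE 0.16, limma adjusted p = 2.75e-04) and -1.23 against Ramos (2.35-fold, adjusted p = 1.49e-04). The second RB1 probe set gave the same direction with smaller sizes, -0.48 (adjusted p = 0.0182) and -0.78 (adjusted p = 0.00124). Namalwa minus Ramos was at -0.09 (adjusted p = 0.767).

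RBL2 was higher in Raji than in Namalwa on both probe sets, by 0.86 (SE 0.14, limma adjusted p = 6.47e-04) and by 0.70 (adjusted p = 0.00313). Its lines were ordered Raji, Ramos, Namalwa, with means of 7.69, 7.28 and 6.83. The step from Ramos to Raji, 0.40 (adjusted p = 0.0317), was 0.13 on the second probe set (adjusted p = 0.492) and was lost without the Raji empty array (adjusted p = 0.0980), the Raji miR26a array (0.0711) or the Ramos empty array (0.366). The step from Namalwa to Ramos was 0.45 (adjusted p = 0.0532) and 0.57 on the second probe set, where it passed (adjusted p = 0.0267).

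RBL1 depended on the probe set. On the brightest the line means lay within 0.05 log2 of each other, with no pair of lines past the threshold (limma adjusted p = 0.833 to 0.995). Without the Raji miR26a array, the Raji empty array alone was lower than Namalwa by 0.44 (adjusted p = 0.0473) and than Ramos by 0.44 (adjusted p = 0.0426), in a fit that takes its spread from the other lines and assumes that this lone array varies like them. The second was at 5.64 and 5.63 in Raji, 5.25 and 5.24 in Ramos, and 4.84 and 4.67 in Namalwa. Raji there exceeded Namalwa by 0.88 (adjusted p = 3.14e-04) and Ramos by 0.39 (adjusted p = 0.0254), and Ramos exceeded Namalwa, with a difference of -0.49 for Namalwa minus Ramos (adjusted p = 0.0281). That second order, Raji over Ramos over Namalwa, is the one seen for RBL2.

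**Figure D3:**
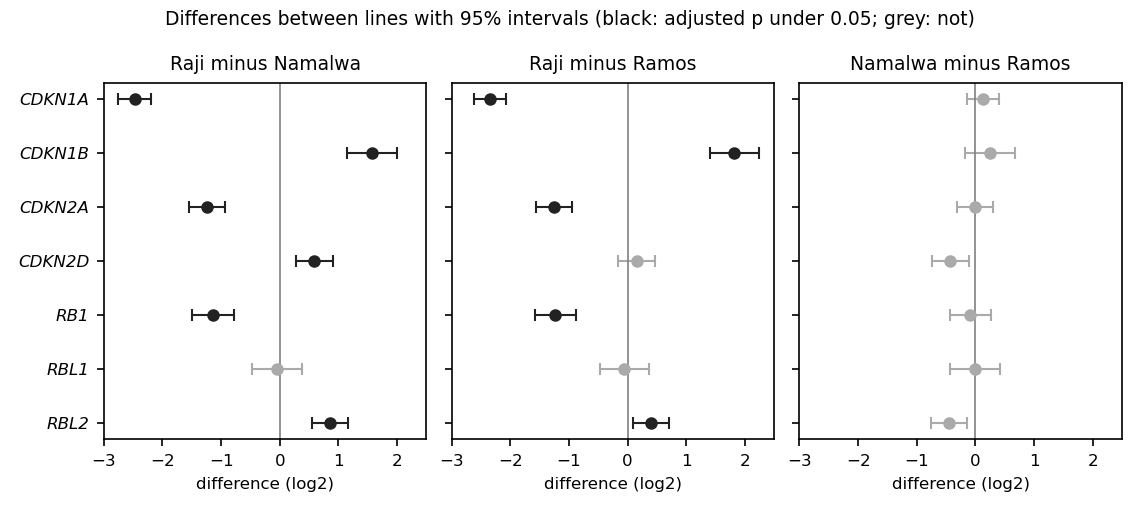
Difference between lines in log2 (x axis) with 95% intervals from limma for the 7 tested genes (y axis), in 3 panels, 1 for each pair of lines; black marks an adjusted p under 0.05 and grey the rest. CDKN1A at -2.47 and -2.35 and CDKN1B at 1.58 and 1.82 lie at opposite ends of both Raji panels, and the Namalwa minus Ramos panel is grey throughout.

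The genes whose levels ran most like a member's over the 6 arrays were read by Pearson correlation among 3425 genes with a range of at least 1 log2. For CDKN1A these were NANOS1 (r = 0.999), N4BP2L1 (0.997) and FTX (0.997), and for CDKN1B LOC155060 (0.997), the TGF-beta-induced factor KLF10 (0.997) and the zinc finger protein ZBTB38 (0.996). CDKN2A ran with the RNA helicase DHX9 (0.998), the T-cell receptor constant region TRBC1 (0.998) and ARHGAP18 (0.998), and RB1 with CRAMP1 (0.998), ZFAND5 (0.998) and LBH (0.998). Such values are common here, over 6 arrays that share 3 lines: 555 genes exceeded 0.95 with CDKN1A, 288 with CDKN1B, 509 with CDKN2A and 650 with RB1. Some of the named genes fell below the level minimum on at least 1 array. Their lowest levels were 2.47 (NANOS1), 3.99 (N4BP2L1), 3.43 (TRBC1), 3.02 (ARHGAP18) and 3.03 (LBH). The correlations are given as a description.

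In the lists of other pathway genes 0 passed the threshold with miR26a. Most genes of the G1 and S list and of the G2 and M list lay below their empty array in every line. These lists hold cyclins, their kinases and other regulators. Of 10 tested G1 and S genes, 7 were lower in all 3 lines and 0 higher (median -0.30). Cyclin E2 (CCNE2), which p21 and p27 inhibit, was at -0.65, the phosphatase CDC25A at -0.45 and cyclin A2 (CCNA2) at -0.38. The D-cyclin kinases CDK4 and CDK6 and cyclin D3 (CCND3) had changes of both signs, with means of 0.11, -0.13 and -0.06. Of 11 tested G2 and M genes, 8 were lower in all 3 lines (median -0.31), with FOXM1, AURKA and AURKB at -0.47, -0.45 and -0.43. The CDK-activating kinase genes CDK7, CCNH and MNAT1 were at -0.13, -0.05 and -0.05. Across all genes tested, 19.6% were lower in all 3 lines and the median was -0.01.

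Among listed targets of E2F and pocket proteins, 17 of the 19 tested were below their empty array in every line (median -0.32). CDC6 was at -0.73, CHAF1A at -0.70 and CDT1 at -0.61. RBL1, which carries the E2F motifs shown above, was lower in 2 of the 3 lines. Of 10 E2F and DP factors 5 were lower and 1 higher in all 3 lines (median -0.08), with E2F2 at -0.47, E2F8 at -0.46 and E2F5 at 0.26. Of 6 MuvB and MYB partners 2 were lower in all 3 lines (median -0.11), with MYBL1 at -0.61, MYBL2 at -0.18 and LIN9 at -0.17. Of 11 chromatin partners of the pocket proteins 3 were lower and 1 higher in all 3 lines (median 0.00), with DNMT1 at -0.33, the histone methyltransferase SUV39H1 at -0.32 and KDM5A at 0.16.

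Of 14 tested genes of p27 turnover and cell cycle ubiquitin ligases, 6 were lower and 2 higher in all 3 lines (median -0.11). SKP2, the F-box protein that marks p27 for breakdown, had differences of -0.77 (Namalwa), -0.45 (Raji) and -0.69 (Ramos), with a mean of -0.64 (SE 0.11, limma adjusted p = 0.073). DTL, the adaptor that marks p21 and CDT1 for breakdown, was at -0.59, -0.57 and -0.52 (mean -0.56, adjusted p = 0.073), and CDC20 had a mean of -0.45. The RNA of both ligase subunits was lower in each line. That of p21 was higher in each line, and that of p27 was higher in Raji and Ramos and lower in Namalwa. None of these changes passed the threshold. The arrays do not read protein, and a link between these RNAs was not tested.

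Of 20 tested regulators of the inhibitor genes, 5 were lower and 2 higher in all 3 lines (median 0.00). EZH2, the Polycomb methyltransferase that silences the CDKN2A locus, was at -0.56, FOXO1 at -0.27 and the Polycomb protein CBX7 at 0.25.

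**Figure D4:**
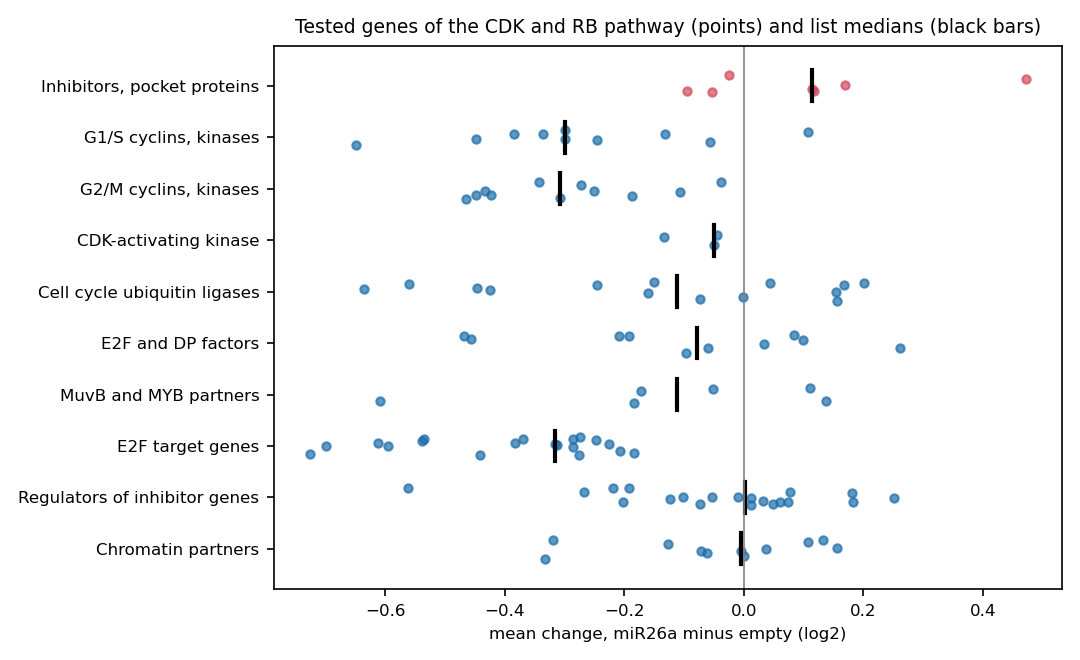
Mean change miR26a minus empty in log2 (x axis) of each tested gene, as points, in the inhibitors and pocket proteins (red) and in 9 lists of their pathway (blue); black bars are list medians and the vertical scatter within a list has no meaning. The medians of E2F and pocket protein targets (-0.32) and of the G1 and S and the G2 and M lists (-0.30 and -0.31) lie below 0. CDKN1A at 0.47 is the highest of the inhibitors and pocket proteins.

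Between lines the lists held calls in both directions, and their total shares in the Raji comparisons were near those of all genes. Of 104 tested genes in the 9 lists, 50% passed between Raji and Namalwa (46.1% of all genes). Between Raji and Ramos 53.8% passed (50.5%). By direction the lists held fewer higher and more lower calls in Raji than all genes did. Against Namalwa, 17.3% were higher and 32.7% lower in Raji (22.8% and 23.4% of all genes). Against Ramos it was 19.2% and 34.6% (26.1% and 24.4%). The counts of single lists are given as a description. In Raji against Namalwa, 1 of 10 tested G1 and S genes was higher and 4 lower, and against Ramos 2 were higher and 5 lower, with CCNE1 lower by 1.15 and 0.87 (limma adjusted p = 1.27e-04 and 6.95e-04) and DBF4, which activates the kinase CDC7, at -0.86 and -1.07. For G2 and M it was 3 higher and 1 lower in both comparisons, with CCNB1 at -0.89 and -0.65 and CDC25B at 0.87 and 0.81. Of the 10 E2F and DP factors 6 were lower and 2 higher in Raji than in Namalwa and 5 lower and 1 higher than in Ramos, with E2F6 at -1.22 and -1.46 and TFDP2 at -1.04 and -1.12. The ligase list had 5 lower and 2 higher, then 7 lower and 2 higher, with CKS1B, the SKP2 cofactor, at -1.09 and -1.14 and FBXW7 at -1.07 and -1.25. Of the CDK-activating kinase genes, CCNH was higher in Raji, at 0.55 and 0.52, and MNAT1 was higher than in Ramos, at 0.93. Of 11 chromatin partners 1 was higher and 4 lower against Namalwa, and 2 higher and 3 lower against Ramos, with DNMT1 at 0.69 and 0.79, SIN3A at -0.69 against Namalwa and SMARCA2 at -1.09 against Ramos.

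Of the 20 tested regulators of the inhibitor genes 10 were lower and 2 higher in both Raji comparisons. EZH2 was at -1.39 against Namalwa and -1.61 against Ramos, SMAD4 at -1.21 against Namalwa and ETS1 at -1.26 against Ramos. The Polycomb protein CBX7 was among the higher ones, at 0.61 against Namalwa and 1.25 against Ramos. MYC, named above as a repressor of CDKN1A, was at -0.53 against Namalwa and -1.14 against Ramos (limma adjusted p = 0.00955 and 8.62e-05). With miR26a its mean change was 0.08 (adjusted p = 0.824). The part of MYC in the CDKN1A levels was not tested. The E2F and pocket protein targets had 4 higher and 4 lower of 19 against Namalwa and 4 higher and 5 lower against Ramos. TOP2A was at -1.10 and -0.94, MCM4 at 0.90 against Namalwa and ORC1 at -0.83 against Ramos. Of the MuvB and MYB partners 2 of 6 were higher in both comparisons, the MYB family factor MYBL1 by 2.01 and 2.11 and MYBL2 by 0.53 and 0.69.

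Between Namalwa and Ramos 12 of the 104 listed genes passed (11.5%, against 14.7% of all genes), and 0 of the 7 tested inhibitors and pocket proteins. TFDP1, a DP partner of E2F, was lower in Namalwa by 1.33 (limma adjusted p = 1.75e-04) and E2F3 was higher by 1.08 (adjusted p = 0.00177). CUL4A, a scaffold of the DTL ligase, was at -1.02, MNAT1 at 0.86, ETS2 at -0.80, SMAD3 at 0.77, MCM3 at -0.64, SMARCA2 at -0.56, CCNE2 at 0.54 and LIN37 at -0.50, each past the threshold.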

How the data were processed

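Total RNA of 6 samples, 2 from each of 3 lines, was hybridised to Affymetrix arrays. The authors normalized the arrays by RMA in BRB Array Tools and deposited log2 intensity values, per the series' design text; GCOS and RMA are listed in the submitters' processing notes with no version. The filter on varying probe sets in the design text is not carried by the table, which holds 54675 probe sets. Because RMA gives arrays a common distribution, a shift of all RNAs one way is hidden. In the platform annotation 41091 probe sets carried 1 gene symbol, 1801 several, 11721 none and 62 were controls; 41037 symbols were updated through Entrez IDs with a RefSeq table (GRCh38.p14), used for names and printed sequences.

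limma 3.58.1 in R 4.3.3 was fitted to 12012 genes with line and group as terms, with Benjamini-Hochberg adjustment over all of them and a threshold of 0.05; intervals are at 95%. The line pairs the samples: deviations from group means correlated within lines (Namalwa 0.861, Raji 0.950, Ramos 0.917). Differences of the miR26a change between lines have 1 pair per line and were not tested, and an exact test over 3 pairs is too small to pass. The number of arrays limits the precision. The fit was run on simulated data with independent noise, where the planted changes were larger than any member's change with miR26a. That run cannot show how well changes of the members' size are found. The members, lists and rules were chosen with earlier results of these data known. Named are all members, of each list up to 3 genes with the largest change with miR26a and up to 2 per pair of lines (those that did not pass between lines are left out), and for members with a range of at least 1 log2 the 3 most alike genes. MYC, CDK4, CDK6 and CCND3 are named as well, because the background mentions MYC and the D-cyclin kinases. CBX7 is also named between lines, as a regulator that was higher in Raji. Alternatives covered the level minimum, the probe set rule, the scaling, the spread model, the block and each left-out array. One of the lists is not reported here.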

Additional observations from a re-analysis of the deposited data

Results flagged for a closer look

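In 3 members the change with miR26a had opposite signs in different lines, each by more than 0.19 log2, the SD of a difference between 2 arrays in limma's prior. Over all 12012 tested genes, 12.9% had such opposed changes. CDKN1B had -0.39 for Namalwa, against 0.31 for Raji and 0.42 for Ramos. RB1 was at -0.34 in Namalwa and 0.28 in Raji. RBL1 had 0.42 for Raji, against -0.34 for Namalwa and -0.36 for Ramos. With 1 pair per line these differences between lines were not tested. The Namalwa values are differences from the empty array with the ACTB reading of 3.58, and the part of RNA quality in them was not tested. CDKN1B had only 1 probe set, so no other could be compared. For RB1 and RBL1 a second probe set above the level minimum did not show the same opposed changes (RB1 at 0.34 and -0.06 in Namalwa and Raji, RBL1 at -0.17, 0.00 and -0.01 in Namalwa, Raji and Ramos). An RBL1 probe set with a mean of 4.34, below that minimum, had 0.32 in Namalwa, 0.295 in Raji and -0.175 in Ramos. It shared the signs of the brightest RBL1 probe set in Raji and Ramos but not in Namalwa.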

How the results depend on the processing

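Of 372 values of members under alternatives, 316 kept their direction and side of the threshold, 18 lost the call, 10 gained it and 28 changed sign. For miR26a against empty 0 members were called under any alternative, with no replicate block (adjusted p = 1 for CDKN1A) or a random one (0.580) too. CDKN1A ranged from 0.44 to 0.52, with adjusted p from 0.060 to 1. With only 1 probe set for CDKN1A, its change could move only with the scaling or a left-out line. The level minimum, probe set rule, spread model and block could not move it. The count of called members fell to 1 in both Raji comparisons with no moderation of the spread, in place of 6 and 5, and lay between 5 and 7 and between 4 and 5 with 1 array left out, where the lone array of that line is assumed to vary like the others. Between Namalwa and Ramos it was 1 at the 75th percentile minimum, with the mean of probe sets, with arrays centred or with a trended prior, and 2 with the most variable probe set, in place of 0, and 0 with any array left out. Values near 0 changed sign. With miR26a, RB1 was at 0.034 by the mean of probe sets and 0.092 by its second probe set, RBL1 at 0.0059 by the mean, and CDKN2A at -0.068 by its second probe set. With a line left out RB1 ranged from -0.18 to 0.14, RBL1 from -0.35 to 0.040, CDKN2D from -0.17 to 0.037 and CDKN1B from -0.040 to 0.37. RBL1 was at 0.32 (mean), 0.88 (most variable, its second probe set) and 0.027 (quantile again) for Raji minus Namalwa and at 0.21, 0.39 and 0.016 for Raji minus Ramos, and ranged from -0.44 to 0.34 and from -0.44 to 0.33 with an array left out. For Namalwa minus Ramos CDKN2A was at 0.063 after quantile normalization again. With an array left out CDKN2A ranged from -0.18 to 0.17, CDKN1B from -0.13 to 0.63, RB1 from -0.33 to 0.15 and RBL1 from -0.20 to 0.20. The cause was not tested. Genes called with miR26a, 0 over all, numbered 50 at the 75th percentile minimum, 102 with a trended prior, 203 without Raji and 23 without Ramos; between Namalwa and Ramos, 1761 became 870 to 983 with an array left out and 0 with no moderation. Chromatin partners called went from 5 to 3 and from 5 to 2 in the Raji comparisons without a level minimum, and G2 and M genes against Ramos from 4 to 2, or 7 by the mean of probe sets, which also gave 3 in place of 5 G1 and S genes against Namalwa and, between Namalwa and Ramos, 2 in place of 4 regulators and 0 in place of 1 chromatin partner.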
